A study of Canis lupus familiaris with 10 samples.

Results

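Cadherins and immunoglobulin-type adhesion molecules were examined in cultured canine hemangiosarcoma cells through 9 genes: the cadherins CDH2, CDH11, CDH6 and CDH13, the immunoglobulin-type molecules NCAM1, ALCAM, ICAM1 and VCAM1, and EPB41L3, which encodes protein 4.1B. Protein 4.1B belongs to the membrane skeleton and is neither a cadherin nor an immunoglobulin-type molecule, so EPB41L3 stands in this set as an anchor of adhesion molecules. All probe sets that the array annotation names for these genes were taken, 29 of 42924 probe sets and 9 of 15115 named genes. The genes were selected on their levels, their losses in single cultures and their differences by breed label in these same arrays, and those values are therefore given as descriptions. Counts of members past a threshold stand beside the share over all tested probe sets, and nothing is read from them.

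Cadherins join neighboring cells by binding their own kind in the presence of calcium, and their cytoplasmic tails reach the actin cytoskeleton through catenins. Endothelial cells carry VE-cadherin (CDH5) and also N-cadherin, while mesenchymal cells carry N-cadherin and cadherin-11 and lack the epithelial E-cadherin (CDH1). Immunoglobulin-type molecules bind one another or bind integrins. ICAM1 and VCAM1 are best known on endothelium exposed to inflammatory cytokines, where they hold leukocytes that carry the matching integrins.

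Hemangiosarcoma is a malignant tumor of dogs attributed to cells of the blood vessel lineage. The cells came from primary tumors of the spleen of pet dogs, were grown in culture and were stored frozen at the earliest passage at hand, with no treatment named, and each of 10 dogs gave 1 Affymetrix Canine_2 array. The Golden Retriever group held 6 dogs (ChadG4, ChadG6, ChadG8, Frog, Journey and Tucker), the Golden Mix was 1 dog (DD1), and the non-Golden Retriever group held 3 dogs (ChadP9, a Portugese Water Dog; Dal4, a Dalmation; Joey, titled as a Rottweiler). Each culture stands for 1 tumor of 1 dog, so the spread between arrays of a group joins the spread between dogs, cultures and arrays, and the methods state that Frog and Journey were distantly related. Breed, and with it each dog's own tumor, is the only comparison that the labels set up. The paper lists all 3 non-Golden Retrievers and DD1 as male and ChadG6, Frog and Journey as female, so sex is not balanced between the breed groups.

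The signals are log2 values, so a difference of 1 is a 2-fold difference, and a signal can be compared between arrays for 1 probe set but not between probe sets. Probe sets of a gene are numbered here by their mean signal over the 10 arrays, probe set 1 having the highest. The 40th percentile of an array lay at 5.02 to 5.16 and is used here as the mark of a low signal. Dal4 and ChadG4, 1 dog of each breed group, stood furthest from the other arrays (mean Euclidean distance over all tested probe sets 138.7 for ChadG4 and 145.0 for Dal4, against 101.4 to 124.2 for the other 8 arrays), and results that rest on them are given with and without them. Of the defining endothelial markers, PECAM1 lay between 4.03 and 4.72 on the 10 arrays, TEK between 3.34 and 3.79 and ESAM between 4.0 and 4.46. These were all under the mark. CDH5 lay between 5.15 and 5.41, just above it on every array, with a span of 0.26 log2 units. A flat signal just above the mark does not by itself show that a gene is expressed. Of 12 endothelial markers, 3 were at or below the 40th percentile on all arrays and 6 were above it on all arrays, and the mean signal of the list was 5.20 to 5.76 in Golden Retrievers and 5.11 to 5.72 in non-Golden Retrievers. Of 9 fibroblast and mesenchymal markers, 8 were above the mark on all arrays, with list means of 10.66 to 11.51 in Golden Retrievers and 9.97 to 11.40 in non-Golden Retrievers. Of 10 leukocyte markers, 5 were at or below the mark on all arrays, among them PTPRC at 4.60 to 4.96, and 4 were above it on all arrays, among them LCP1 at 7.97 to 11.03 and CD14 at 5.98 to 7.98. The means of that list were 5.33 to 5.76 in Golden Retrievers and 5.12 to 5.65 in non-Golden Retrievers. In such cultures a smaller number of cells of a type and less RNA per cell cannot be told apart.

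The signals of the 9 genes ranged from moderately variable to nearly all or none. Of the 29 probe sets, 23 passed the filter on low values, in 8 of the 9 genes. The 6 that did not pass were both VCAM1 probe sets, 2 of EPB41L3, 1 of NCAM1 and 1 of CDH6. Ranked by the span between the lowest and the highest of the 10 arrays, with the probe set of highest mean for each gene, VCAM1 spanned 7.77 log2 units, EPB41L3 6.80, CDH13 4.90, CDH11 4.75, ICAM1 3.23, NCAM1 2.82, CDH6 2.73, ALCAM 2.04 and CDH2 1.68. The median span over all tested probe sets was 1.06, and a span as large as that of CDH2 was found in 22.5% of them, whereas one as large as that of EPB41L3 was found in 0.329%.

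**Figure D1:**
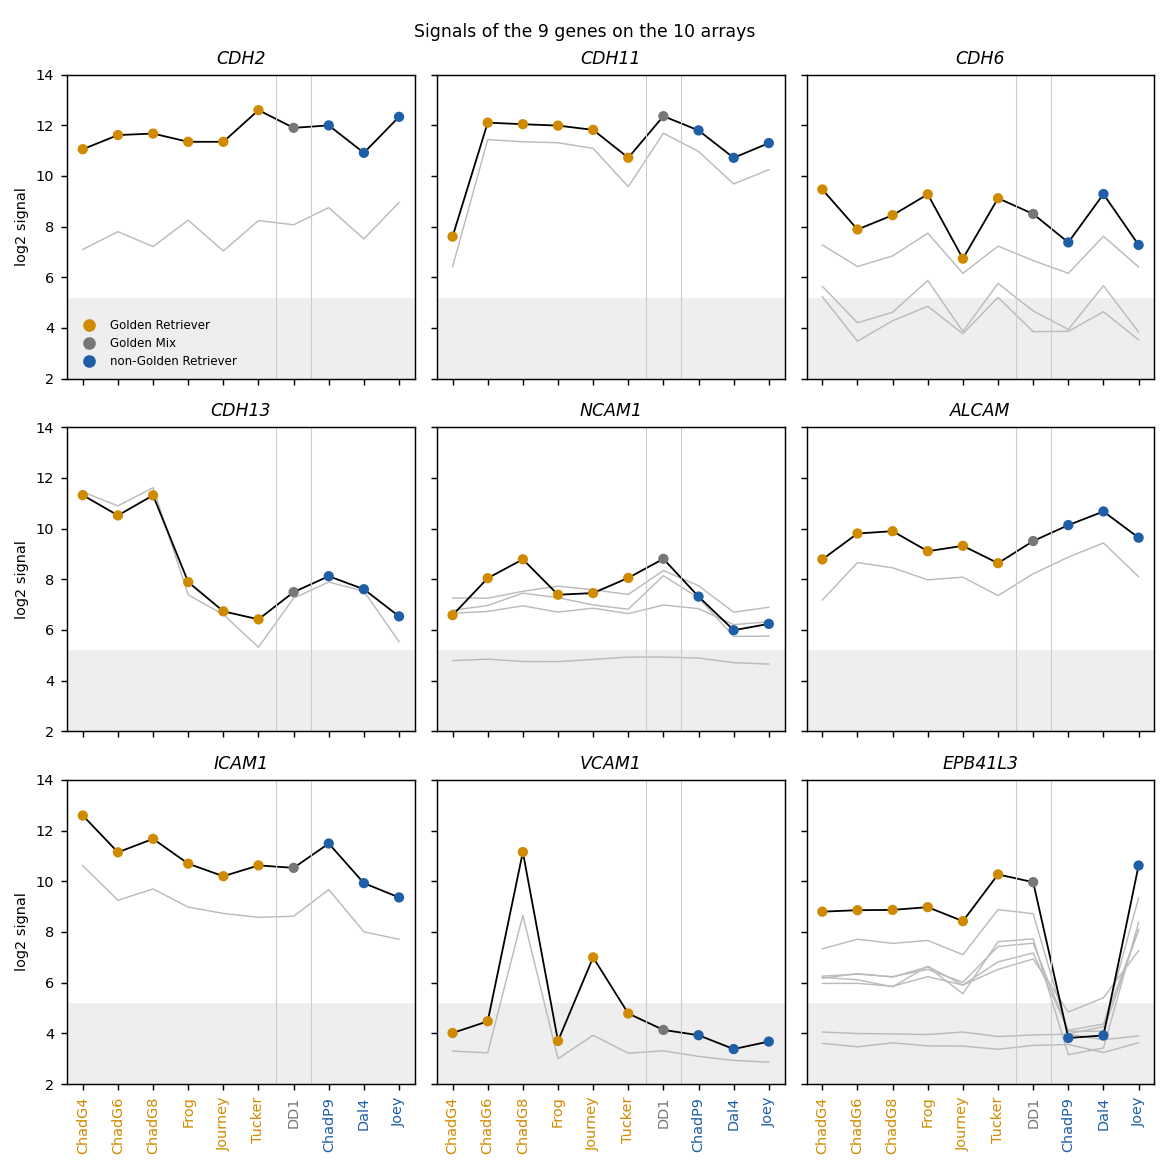
Log2 signal (vertical axis) of the 9 genes on the 10 arrays (horizontal axis, 1 dog each), with Golden Retrievers at the left, the Golden Mix in the middle and non-Golden Retrievers at the right. Colored points on a black line are the probe set of highest mean, gray lines are the other probe sets of the gene, lines only join the points of 1 probe set, and the shaded band ends at the highest 40th percentile of an array, 5.16. CDH11 is low in ChadG4 alone, CDH13 is high in ChadG4, ChadG6 and ChadG8, VCAM1 is high in ChadG8, and EPB41L3 is low in ChadP9 and Dal4.

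CDH2, N-cadherin (gene ID 480169, chromosome 7), had the smallest span of the 9 genes on probe set 1. Probe set 1 had signals of 11.05 to 12.60 with a median of 11.48 in Golden Retrievers, 11.90 in DD1, and 11.99, 10.91 and 12.33 in the non-Golden Retrievers ChadP9, Dal4 and Joey. Tucker and Joey were the highest, ChadG4 and Dal4 the lowest, and the breed groups overlapped over nearly their whole range. The mean was 11.60 ± 0.53 in Golden Retrievers (SD, n = 6) and 11.75 ± 0.74 in non-Golden Retrievers (SD, n = 3). Probe set 2 had 7.04 to 8.25 in Golden Retrievers, 8.07 in DD1 and 8.75, 7.51 and 8.95 in ChadP9, Dal4 and Joey. There the difference, Golden Retriever minus non-Golden Retriever, was -0.80 (SE 0.40), against -0.14 (SE 0.38) for the first probe set.

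CDH11, also called OB-cadherin and found on mesenchymal cells (gene ID 479696, chromosome 5), was high in 9 cultures and low in that of ChadG4. Probe set 1 had a signal of 7.61 in ChadG4 and of 10.72 to 12.10 in the other Golden Retrievers, 12.36 in DD1, and 11.80, 10.71 and 11.30 in ChadP9, Dal4 and Joey. ChadG4 thus lay 3.11 log2 units below the next array, though still above the 40th percentile. Probe set 2 gave the same picture, with 6.42 in ChadG4, 9.58 to 11.43 in the other Golden Retrievers, 11.68 in DD1 and 10.96, 9.68 and 10.25 in ChadP9, Dal4 and Joey. The difference by breed label was -0.22 (SE 0.93) for the first probe set and turned to 0.46 (SE 0.36) without ChadG4, to 0.19 (SE 0.39) without both ChadG4 and Dal4, and to 0.04 (SE 1.13) without ChadP9. A single-array loss, with the lowest array at least 3 log2 units below every other, was found in 0.254% of all tested probe sets and in 2 of the 23 member probe sets, both of CDH11. ChadG4 held 20 of the 68 losses over all tested probe sets. Its ACTA2 signal, the smooth muscle actin, was 6.39, against 9.73 to 14.13 on the other arrays. The mean of the 8 smooth muscle and pericyte markers, ACTA2 among them, was 6.12 in ChadG4, the lowest of the 10 arrays. It was 7.49 to 8.50 in the other Golden Retrievers, 7.62 in DD1 and 6.99 to 8.19 in non-Golden Retrievers. TAGLN, MYH11 and CSPG4 were also lowest in ChadG4, at 12.97, 4.54 and 4.49, but the next arrays were near, at 13.55, 4.67 and 4.64. These MYH11 and CSPG4 signals were below the 40th percentile. CNN1 and RGS5 were lowest in Joey, DES in ChadG6 and NOTCH3 in DD1. The part of these markers in the CDH11 signal was not tested.

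CDH6, K-cadherin, known from kidney and from several carcinomas in humans (gene ID 479376, chromosome 4), varied from dog to dog within both groups. The signal of probe set 1 was 9.47 in ChadG4, 7.89 in ChadG6, 8.45 in ChadG8, 9.27 in Frog, 6.73 in Journey and 9.12 in Tucker, 8.50 in DD1, and 7.38, 9.28 and 7.28 in ChadP9, Dal4 and Joey. High and low cultures were found in each group, and the means were 8.49 ± 1.04 in Golden Retrievers (SD, n = 6) and 7.98 ± 1.13 in non-Golden Retrievers (SD, n = 3). The same 4 dogs, ChadG4, Frog, Tucker and Dal4, were the highest in probe set 2, at 7.23 to 7.74, and in probe set 3, at 5.64 to 5.87, where they were the only arrays above the 40th percentile. The difference by breed label of probe set 1 was 0.51 (SE 0.66), and 0.97 (SE 0.64) without Dal4 and ChadG4. Over the alternatives it ran from 0.16 without Joey to 1.16 without Dal4.

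CDH13, T-cadherin (gene ID 489689, chromosome 5), is held in the membrane by a lipid anchor, lacks the tail that binds catenins, and is known on endothelial and smooth muscle cells. Its signals fell into a high and a low range, and the Golden Retriever group held both. Probe set 1 had 11.32 in ChadG4, 10.52 in ChadG6, 11.31 in ChadG8, 7.89 in Frog, 6.74 in Journey and 6.42 in Tucker, 7.50 in DD1, and 8.12, 7.61 and 6.54 in ChadP9, Dal4 and Joey. Probe set 2 had 11.45, 10.90 and 11.62 in ChadG4, ChadG6 and ChadG8, 7.39, 6.61 and 5.32 in Frog, Journey and Tucker, 7.26 in DD1, and 7.89, 7.53 and 5.54 in ChadP9, Dal4 and Joey. On both probe sets 3 Golden Retrievers lay above the other 7 arrays, and the remaining 3 Golden Retrievers overlapped with the non-Golden Retrievers. The 3 high dogs share the start of their label, Chad, with ChadP9, whose signals were in the low range, and the labels do not say what it stands for. The gap under the 3 high arrays was 2.40 log2 units on the first and 3.01 on the second. The means of probe set 1 were 9.03 ± 2.28 in Golden Retrievers (SD, n = 6) and 7.42 ± 0.81 in non-Golden Retrievers (SD, n = 3), a difference of 1.61 (SE 1.21). Without Dal4 and ChadG4 the difference was 1.25 (SE 1.40).

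NCAM1, the neural cell adhesion molecule CD56 (gene ID 479435, chromosome 5), was higher on average in Golden Retrievers on each of its 4 tested probe sets. Probe set 1 had 6.59 in ChadG4 and 7.39 to 8.79 in the other Golden Retrievers, with a group median of 7.75, 8.81 in DD1, and 7.32, 5.99 and 6.24 in ChadP9, Dal4 and Joey. Dal4 and Joey were the lowest of the 10 arrays, DD1 was the highest, and ChadP9 lay within the Golden Retriever range. The means were 7.72 ± 0.75 in Golden Retrievers (SD, n = 6) and 6.52 ± 0.70 in non-Golden Retrievers (SD, n = 3), a difference of 1.20 (SE 0.46). Over the alternatives it ran from 0.63 with DD1 counted as a non-Golden Retriever to 1.60 without ChadP9. Without Dal4 and ChadG4 it was 1.17 (SE 0.43). The differences of the other 3 tested probe sets were 0.30 to 0.79. On probe set 3, Dal4 and Joey had 5.75 and 5.76, against 6.78 to 7.45 in Golden Retrievers, 8.14 in DD1 and 7.27 in ChadP9. Probe set 5 was below the 40th percentile on every array, at 4.65 to 4.93.

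ALCAM, or CD166, which binds itself and the lymphocyte receptor CD6 (gene ID 478550, chromosome 33), had lower means in Golden Retrievers on both of its probe sets. In probe set 1 the signals were 8.64 to 9.90 with a median of 9.21 in Golden Retrievers, 9.51 in DD1, and 10.14, 10.68 and 9.64 in ChadP9, Dal4 and Joey. ChadG6 and ChadG8, at 9.81 and 9.90, lay above Joey, and the other 4 Golden Retrievers lay below all 3 non-Golden Retrievers. The means were 9.26 ± 0.52 in Golden Retrievers (SD, n = 6) and 10.15 ± 0.52 in non-Golden Retrievers (SD, n = 3). The difference was -0.89 (SE 0.33), and -0.54 (SE 0.36) without Dal4 and ChadG4, the end nearest 0 of the alternatives, which ran to -1.15. Probe set 2 gave -0.85 (SE 0.39).

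ICAM1, the ligand of leukocyte integrins such as LFA-1 (gene ID 403975, chromosome 20), was well above the 40th percentile in every culture. The first probe set had 12.60 in ChadG4, 11.14 in ChadG6, 11.67 in ChadG8, 10.70 in Frog, 10.20 in Journey and 10.63 in Tucker, 10.53 in DD1, and 11.49, 9.93 and 9.36 in ChadP9, Dal4 and Joey. ChadG4 was the highest and Joey the lowest, and ChadP9 was higher than 4 of the 6 Golden Retrievers. Probe set 2 had the same highest and lowest dogs, at 10.61 in ChadG4 and 7.71 in Joey. The difference by breed label of probe set 1 was 0.90 (SE 0.58), and 0.44 (SE 0.58) without Dal4 and ChadG4. Over the alternatives this was the lowest value, and the highest was 1.51 without ChadP9.

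VCAM1, the ligand of the integrin of ITGA4 and ITGB1 (gene ID 403982, chromosome 6), was at a low signal in most cultures and high in that of ChadG8. On probe set 1 the signal was 11.15 in ChadG8, 7.0 in Journey and 3.70 to 4.78 in the other Golden Retrievers, 4.14 in DD1, and 3.93, 3.38 and 3.68 in ChadP9, Dal4 and Joey. ChadG8 and Journey were the only arrays above the 40th percentile. Probe set 2 had 8.66 in ChadG8, 3.92 in Journey and 3.00 to 3.30 in the other Golden Retrievers, 3.31 in DD1, and 3.09, 2.93 and 2.87 in ChadP9, Dal4 and Joey. ChadG8 stood 4.15 and 4.74 log2 units above the next array. A gain of at least 3 log2 units on a single array was found in 0.214% of all 42924 probe sets, and both VCAM1 probe sets were among them. Neither probe set passed the filter, and VCAM1 has no fitted difference.

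EPB41L3 (gene ID 480198, chromosome 7) had the widest span of the genes that passed the filter, and its low cultures were ChadP9 and Dal4. Protein 4.1B ties membrane proteins such as CADM1 to spectrin and actin and is often lost in human carcinomas and meningiomas. Signals of probe set 1 were 8.80, 8.86, 8.87, 8.98, 8.43 and 10.27 in ChadG4, ChadG6, ChadG8, Frog, Journey and Tucker, 9.97 in DD1, and 3.82, 3.92 and 10.62 in ChadP9, Dal4 and Joey. ChadP9 and Dal4 lay below the 40th percentile, and Joey, of the same group, was the highest of all. The gap between Dal4 and the next array was 4.51 log2 units. A gap of at least 3 log2 units between neighbors in the order of the 10 arrays was found in 0.437% of all tested probe sets and in 4 of the 23 member probe sets, namely both of CDH11, 1 of CDH13 and this 1 of EPB41L3.

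The other EPB41L3 probe sets were examined in the same way. ChadP9 and Dal4 were the lowest arrays on all 6 tested probe sets, and on 5 of them both were below the 40th percentile. On probe set 6 they had 4.84 and 5.40, against 5.86 to 6.52 in Golden Retrievers, 6.93 in DD1 and 7.26 in Joey, and Dal4 was there above the mark. The largest gap under the other arrays was 2.84 on probe set 2, just short of 3. Joey was the highest array on all 6, and Tucker the highest Golden Retriever on all 6. The remaining probe sets, 7 and 8, lay at 3.75 to 4.05 and 3.24 to 3.63 on the 10 arrays and do not separate any culture. The difference by breed label of probe set 1 was 2.92 (SE 1.32), with means of 9.04 ± 0.63 in Golden Retrievers (SD, n = 6) and 6.12 ± 3.90 in non-Golden Retrievers (SD, n = 3). Joey alone set the spread of the non-Golden Retriever group: without Joey the difference was 5.17 (SE 0.42), and without Dal4 and ChadG4 it was 1.86 (SE 1.52).

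**Figure D2:**
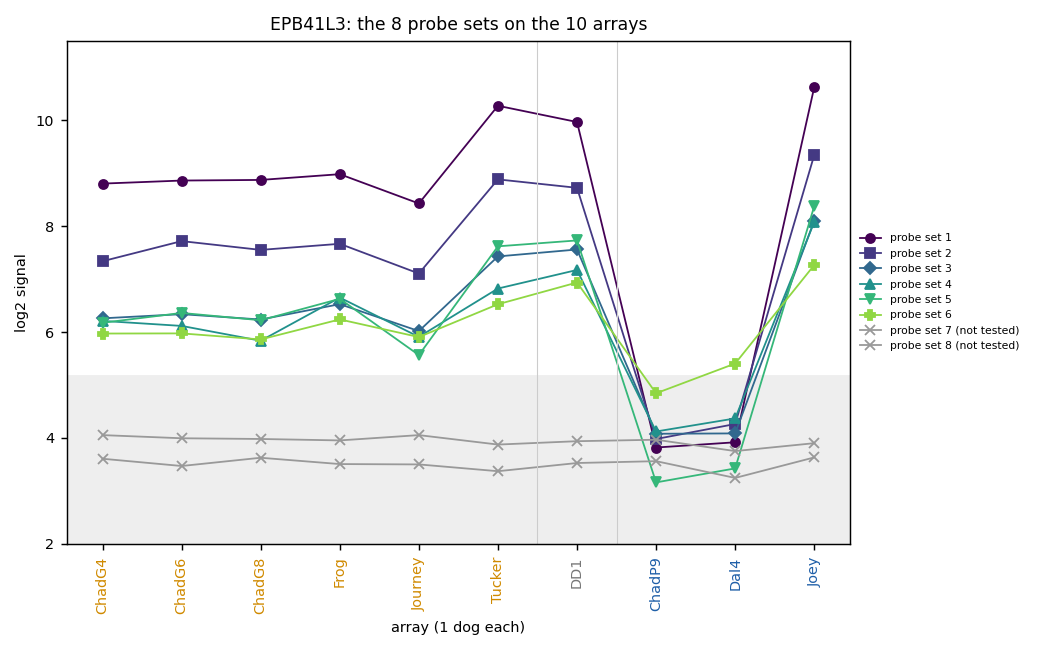
Log2 signal of the 8 EPB41L3 probe sets (vertical axis) on the 10 arrays (horizontal axis, Golden Retrievers, then the Golden Mix, then non-Golden Retrievers), 1 marker and color for each probe set and gray crosses for the 2 that did not pass the filter. ChadP9 and Dal4 are the lowest arrays of all 6 tested probe sets and Joey is the highest, and the gray pair stays between 3.24 and 4.05 on every array.

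Over the whole set, no member separated the breed groups. At an adjusted p under 0.05 by limma, 0 of the 23 tested probe sets were called, where 0.00373% of all 26787 tested probe sets were (1 probe set, named for the MHC class I gene DLA88). At an unadjusted p under 0.05 the number was 3 of 23, in NCAM1 and ALCAM, beside 6.33% of all tested probe sets. The methods' t-test gave 0 member probe sets after adjustment, beside 0.00747% of all tested probe sets, and 1 before it (probe set 1 of ALCAM), beside 5.65%. Groups without overlap were found for 0 of the 23, where 2.46% of all tested probe sets had them. Of the 23, 17 had a higher mean in Golden Retrievers and 6 a lower mean, where 47.1% of all tested probe sets had a higher one. The median difference of the 23 was 0.51, beside -0.02 over all tested probe sets. Probe sets of 1 gene share its transcript. Counted by gene, 5 of the 8 tested genes had a higher mean in Golden Retrievers and 3 (CDH2, CDH11 and ALCAM) a lower one on the probe set of highest mean. Nothing is read from these counts, since the values were known when the genes were selected.

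**Figure D3:**
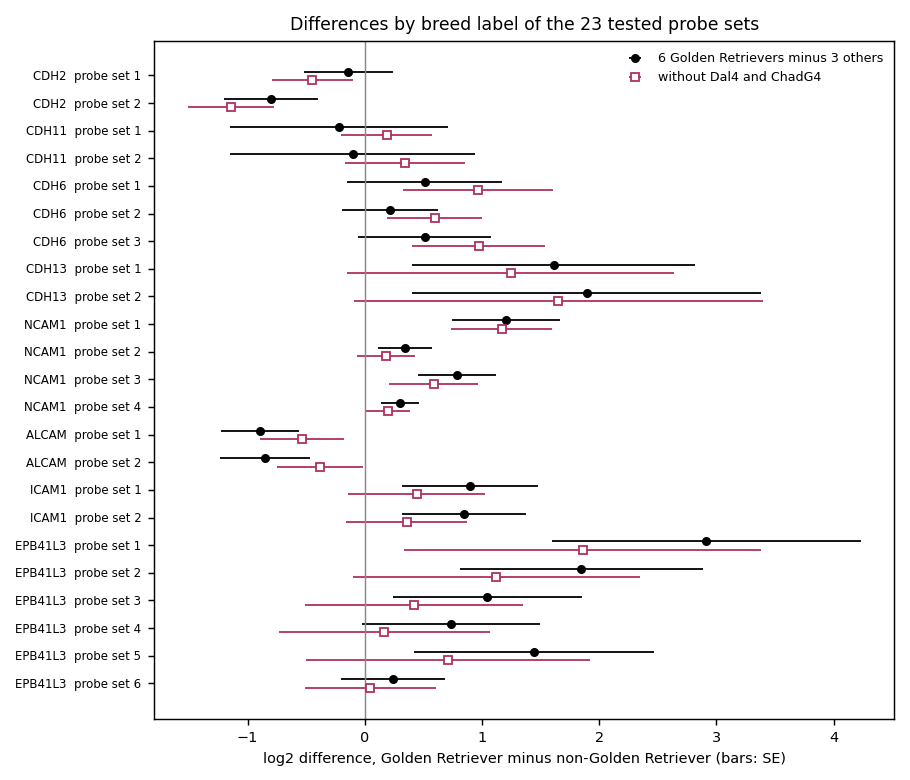
Difference in mean log2 signal, Golden Retriever minus non-Golden Retriever (horizontal axis), of the 23 tested probe sets (vertical axis), with bars of 1 SE from the limma fit. Black circles are 6 Golden Retrievers minus 3 non-Golden Retrievers, and open squares leave out Dal4 and ChadG4. The black points run from -0.89 for ALCAM to 2.92 for EPB41L3, and the longest bars belong to CDH13 and EPB41L3.

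The 9 genes did not rank the dogs alike. On the probe sets of highest mean, ChadG4 was the highest array for CDH6, CDH13 and ICAM1 and the lowest for CDH11. Dal4 was the highest for ALCAM and the lowest for CDH2, NCAM1 and VCAM1. Tucker was the highest for CDH2 and the lowest for CDH13 and ALCAM. DD1, the Golden Mix, was the highest for CDH11 and NCAM1, and ChadG6 and Frog were at neither end for any gene. Probe sets of 1 gene followed each other closely for ALCAM, ICAM1 and CDH11, with root mean square differences after centering of 0.15, 0.17 and 0.20 log2 units over the 10 arrays. These differences were larger for CDH2 and CDH13, both 0.47, for CDH6, with 0.28 to 0.51, and for NCAM1, with 0.50 to 0.88. They were 0.82 for VCAM1 and 0.63 to 2.27 for EPB41L3. The differences are not scaled to the span of a gene, so equal values do not mean equal agreement.

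For the 5 members that spanned at least 3 log2 units, the named genes with the most similar pattern were found among all probe sets by the root mean square difference, in log2 units, after centering each on its mean over the 10 arrays. CDH11 was followed by SDC2, the heparan sulfate proteoglycan syndecan-2, at 0.33. Next were TGFB1I1, a focal adhesion protein also called Hic-5, at 0.38, and LOC480441 at 0.54. SDC2 had 6.70 in ChadG4 and 10.19 to 11.15 in the other Golden Retrievers, 10.91 in DD1, and 10.99, 9.10 and 10.06 in ChadP9, Dal4 and Joey. TGFB1I1 had 6.86 in ChadG4, against 9.14 to 10.62 on the other 9 arrays.

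The gene nearest to CDH13 was FLT1, which encodes the VEGF receptor VEGFR1, at 0.68, followed by SULT4A1, a sulfotransferase, at 0.85 and ZNF385D, a zinc finger gene, at 0.93. FLT1 had 8.32, 6.77 and 8.38 in ChadG4, ChadG6 and ChadG8, 4.75, 5.39 and 3.67 in Frog, Journey and Tucker, 4.63 in DD1, and 4.98, 3.50 and 3.60 in ChadP9, Dal4 and Joey. The 3 dogs with high CDH13 thus had the 3 highest FLT1 signals, while PECAM1 in the same dogs was 4.12 to 4.30 and KDR, the other main VEGF receptor, was 7.03 to 7.83 there and 6.51 to 8.25 elsewhere. VWF, which endothelial cells make, was highest in ChadG4 at 6.08 and lay at 4.75 to 5.14 in the other 9 cultures. The part of endothelial cells in these signals was not tested.

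ICAM1 was followed by PPM1H, a protein phosphatase, at 0.39, PLK2, a stress-responsive kinase, at 0.42, and SLCO3A1, an anion transporter, at 0.45. PPM1H had 8.12 in ChadG4 and 5.88 to 7.10 in the other Golden Retrievers, 6.13 in DD1, and 6.54, 5.98 and 5.85 in ChadP9, Dal4 and Joey. The differences to VCAM1 and EPB41L3 were larger in log2 units. They are not scaled to a member's span, which was widest for VCAM1 and EPB41L3. VCAM1 was followed by IGFBP2, which binds insulin-like growth factors, at 0.94, AMPD1, the AMP deaminase of muscle, at 1.02, and SVEP1, a large secreted adhesion protein, at 1.16. IGFBP2 had 11.86 in ChadG8 and 8.33 in Journey, and 5.98 to 8.28 on the other 8 arrays.

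EPB41L3 was followed by S100A16, a calcium-binding protein, at 1.07, PROS1, the anticoagulant protein S, at 1.17, and PCSK5, a proprotein convertase, at 1.25. S100A16 had 9.34 to 11.23 in Golden Retrievers, 10.50 in DD1, and 6.24, 6.08 and 9.81 in ChadP9, Dal4 and Joey. PROS1 had 8.30 to 11.35 in Golden Retrievers, 9.34 in DD1, and 7.55, 4.59 and 10.64 in ChadP9, Dal4 and Joey. ChadP9 and Dal4 held 15 and 28 of the single-array losses over all tested probe sets, in which 1 dog alone is low, and EPB41L3 is none of them since these dogs were low together. Of the fibroblast markers, DCN was also lowest in ChadP9 and Dal4, at 12.55 and 12.96 against 13.64 to 14.21 on the other 8 arrays. LUM was at 4.40 in Dal4 and 13.69 in ChadP9. The mean of this list was 10.88 in ChadP9 and 9.97 in Dal4, the lowest array. It was 10.66 to 11.51 in Golden Retrievers, 11.56 in DD1 and 11.40 in Joey. The genes of the list differed. FAP was 8.14 in ChadP9, 6.53 in Dal4 and 6.89 in ChadG4, and 9.96 to 11.47 elsewhere. PDGFRB was highest of all arrays in ChadP9, at 7.17, and THY1 in Dal4, at 8.33. The part of these markers in the EPB41L3 signal was not tested.

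**Figure D4:**
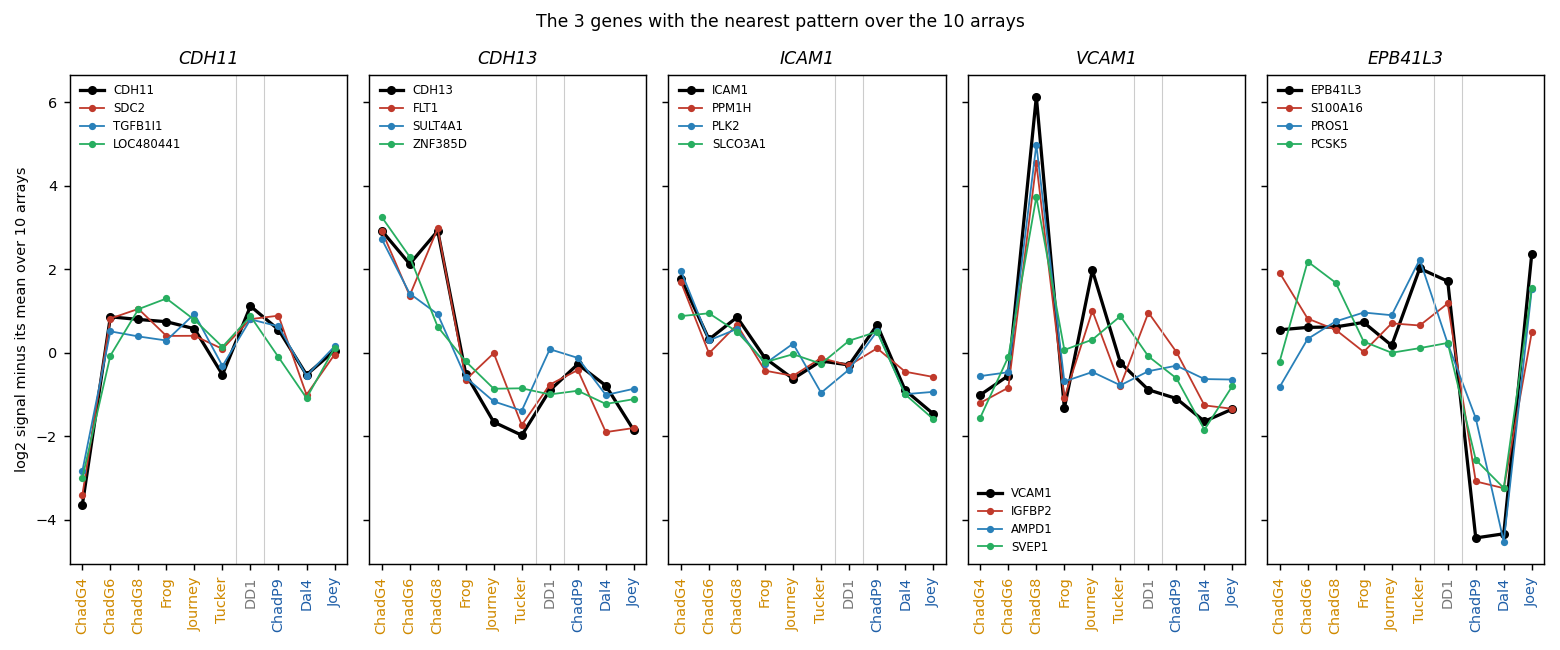
Log2 signal minus its mean over the 10 arrays (vertical axis) for CDH11, CDH13, ICAM1, VCAM1 and EPB41L3 (black) and the 3 named genes nearest to each in pattern (colors) on the 10 arrays (horizontal axis, Golden Retrievers, then the Golden Mix, then non-Golden Retrievers). SDC2 and TGFB1I1 share the low signal of CDH11 in ChadG4, and FLT1 shares the high signals of CDH13 in ChadG4, ChadG6 and ChadG8.

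The tested genes that lie nearest on the chromosome to the 4 members with a gap of at least 3 log2 units did not show such gaps. Since only 0.437% of all tested probe sets had one, nothing is read from their absence among so few genes. Order on the chromosome was taken from the dog assembly UU_Cfam_GSD_1.0. The 10 genes around EPB41L3 on chromosome 7 spanned 0.33 to 2.84 log2 units over the 10 arrays with a largest gap of 0.81, and ChadP9 and Dal4 were the lowest pair for 0 of the 10. Next to EPB41L3 on either side, ZBTB14 spanned 0.40 and PTPRM 2.15, and TGIF1, with ChadP9 the lowest, spanned 2.84. CDH13 and CDH11 both lie on chromosome 5. The 10 genes around CDH13 spanned 0.44 to 1.26 and their largest gap was 0.45. CDH11 had tested genes on 1 side only, 5 of them, with spans of 0.26 to 1.81, and ChadG4 was the lowest for 0 of the 5. The nearest of these was CDH5, the gene of VE-cadherin, which spanned 0.26 log2 units. The 10 genes around VCAM1 on chromosome 6 spanned 0.52 to 2.67, and ChadG8 was the highest for 0 of them.

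**Figure D5:**
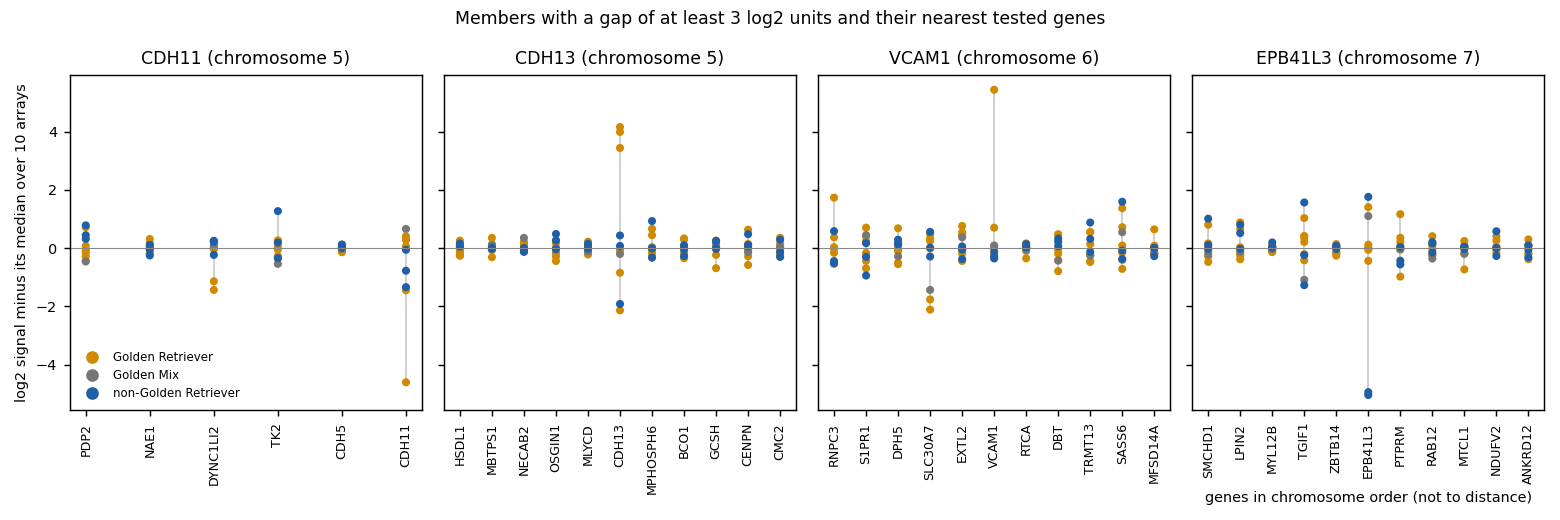
Log2 signal minus its median over the 10 arrays (vertical axis), 1 point for each array, for CDH11, CDH13, VCAM1 and EPB41L3, each shown by its probe set of largest gap, and for up to 5 tested genes on either side in chromosome order (horizontal axis, not to distance). The members have arrays set far from the rest, while their neighbors span at most 2.84 log2 units.

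Genes that work with these members were taken in 9 lists of 153 genes, of which 129 were on the array and 89 passed the filter with the probe set of highest mean. By limma 0 of the 89 passed the adjusted test in either direction, with 5 at an unadjusted p under 0.05 (CDH16, PCDH7, VCL, DLG1 and ITGB7), where 6.33% of all tested probe sets were. The methods' t-test gave 0 and 1 (ITGB7), where 0.00747% and 5.65% of all tested probe sets were past the same limits. The median difference of a list lay between -0.17 and 0.21, beside -0.02 over all tested probe sets. No gene of these 9 lists had a loss or a gain of at least 3 log2 units on a single array. Such a loss was found in 0.254% of all tested probe sets and such a gain in 0.214% of all probe sets.

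Of 17 other cadherins, 10 were at or below the 40th percentile on all arrays, among them the epithelial CDH1, at 3.57 to 4.12. CDH18, a cadherin known from brain, had 8.89 in ChadG4 and 7.59 in ChadG6 and 4.39 to 4.80 on the other 8 arrays, a gap of 2.80. CDH16, known as kidney-specific cadherin, had the highest difference of this list at 1.14 (SE 0.46), with 9.29 to 11.31 in Golden Retrievers, 10.97 in DD1 and 10.20, 8.72 and 8.72 in ChadP9, Dal4 and Joey. CDH3, P-cadherin, had the lowest at -0.39 (SE 0.38), with 7.54 in ChadP9 and 5.62 to 6.26 on every other array. Of 13 protocadherins and related large cadherins, 8 were tested, and they ran from FAT4 at -0.19 (SE 0.43) to PCDH7 at 1.62 (SE 0.63). PCDH7 had 7.08 to 9.15 in Golden Retrievers, 8.27 in DD1 and 6.69, 5.08 and 8.17 in ChadP9, Dal4 and Joey.

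Of 14 catenins and anchors, 10 were above the 40th percentile on all arrays. CTNNB1, beta-catenin, spanned 11.60 to 12.35 and CTNNA1, alpha-catenin, 10.77 to 12.07. CTNNA1 was lowest in ChadG4, at 10.77, and lay at 11.55 to 11.74 in the other Golden Retrievers, 12.07 in DD1, and 11.88, 11.52 and 11.502 in ChadP9, Dal4 and Joey, and the part of this in the CDH11 signal was not tested. VCL, vinculin, had the lowest difference at -1.02 (SE 0.40), with 6.30 to 8.05 in Golden Retrievers, 7.89 in DD1 and 8.22, 8.78 and 7.79 in ChadP9, Dal4 and Joey. PKP2, plakophilin-2, had the highest at 0.85 (SE 0.53). Of 29 other immunoglobulin-type adhesion molecules, 19 were tested, 12 with a higher and 7 with a lower mean in Golden Retrievers. CADM1, a partner of protein 4.1B, had the highest difference at 1.31 (SE 0.77), with 8.18 to 10.74 in Golden Retrievers, 9.70 in DD1 and 6.27, 8.55 and 10.14 in ChadP9, Dal4 and Joey. ChadP9 was the lowest array for both CADM1 and EPB41L3, whereas Dal4 lay above ChadG4 for CADM1. JAM3, a junction molecule, had the lowest difference at -0.41 (SE 0.45).

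The protein 4.1 family and its partners, 15 genes with 13 tested, kept above the 40th percentile on all arrays for 12 of them. The other protein 4.1 genes were EPB41 at 5.56 to 7.07, EPB41L1 at 7.91 to 9.54, EPB41L2 at 7.26 to 8.91, EPB41L4B at 5.04 to 7.72 and EPB41L5 at 2.91 to 3.35 over the 10 arrays, with EPB41L4B spanning the most, 2.67 log2 units. Differences ran from DLG1, a scaffold protein, at -0.65 (SE 0.28) to SPTAN1, alpha-spectrin, at 0.23 (SE 0.33). Of 9 leukocyte counter-receptors and selectins, ITGB1, which many cells use, lay at 12.42 to 13.36, while ITGA4, the partner that binds VCAM1, was at 3.03 to 4.1 and the endothelial selectin SELE at 4.21 to 4.89. ITGB7 had the lowest difference at -0.71 (SE 0.25), with 8.29 in Dal4 and 6.62 to 7.28 elsewhere, and ITGAL the highest at 0.14 (SE 0.12).

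The list of NF-kappaB subunits and of genes induced through NF-kappaB, as ICAM1 and VCAM1 are on endothelium, held 15 genes. Of these 14 were tested, 7 with a higher and 7 with a lower mean in Golden Retrievers. PTGS2, cyclooxygenase-2, had the highest difference at 1.94 (SE 1.34) and BIRC3, a survival gene, the lowest at -0.43 (SE 0.34). PTGS2 had 10.96, 9.22 and 11.68 in ChadG4, ChadG6 and ChadG8, 11.43, 7.72 and 7.35 in Frog, Journey and Tucker, 10.44 in DD1, and 8.44, 4.75 and 10.17 in ChadP9, Dal4 and Joey. CXCL8, a chemokine for neutrophils, was highest in Journey at 8.94 and in ChadG8 at 8.48, and lay at 4.24 to 6.75 on the other 8 arrays. These are the dogs above the 40th percentile on probe set 1 of VCAM1. On its probe set 2 Journey, at 3.92, was below that mark. For no other gene of this list were Journey and ChadG8 the highest pair. CXCL8 is named here after its values were seen. Its part in the VCAM1 signal was not tested.

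Of 9 regulators of epithelial to mesenchymal transition, 7 were tested, with SNAI2 the lowest at -0.42 (SE 0.24) and TCF4 the highest at 0.31 (SE 0.32). SNAI2, which represses E-cadherin, lay at 11.02 to 12.14 on the 10 arrays. Of 8 sheddases and enzymes of turnover, ADAM10, which cuts N-cadherin, had the lowest difference at -0.29 (SE 0.27). ST8SIA4, which adds polysialic acid to NCAM1, had the highest at 0.33 (SE 0.62), with 5.48 to 7.55 in Golden Retrievers, 6.31 in DD1 and 7.05, 4.66 and 6.11 in ChadP9, Dal4 and Joey.

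EPCAM, a marker of epithelium, was high in 2 dogs. It had 8.03 in Tucker and 8.87 in Joey, against 3.62 to 4.72 on the other 8 arrays, and these dogs were also the highest on probe set 1 of CDH2 and of EPB41L3. On probe set 2 of CDH2 Joey was the highest but ChadP9 and Frog, at 8.75 and 8.25, lay above Tucker, at 8.24, and on probe sets 3 to 6 of EPB41L3 DD1 lay between Joey and Tucker. CHL1, a neural immunoglobulin-type molecule, had 8.21 in Joey, 7.19 in ChadG4 and 6.07 in Tucker, and 3.52 to 4.75 elsewhere. Of the 6 epithelial and mesothelial markers on the array, 1 was at or below the 40th percentile on all arrays, CDH1, and 1 was above it on all arrays. The mean of this list was 5.49 to 7.28 in Golden Retrievers, 6.86 in DD1 and 4.94 to 8.0 in non-Golden Retrievers. KRT8, a keratin, had 3.82 in ChadP9 and 9.45 to 11.67 on the other 9 arrays, and its partner KRT18 had 3.57, 4.30 and 3.93 in ChadG4, ChadG6 and Dal4 and 8.40 to 13.22 elsewhere. The part of epithelial cells in the CDH2 and EPB41L3 signals was not tested. Of 4 glial markers, 3 were at or below the 40th percentile on all arrays, and their means were 4.59 to 4.92 in Golden Retrievers and 4.57 to 4.96 in non-Golden Retrievers.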

How the data were processed

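RNA of hemangiosarcoma cells of 10 dogs was hybridized to Canine_2 arrays, 1 array per dog. The authors deposited log2 signals, which their notes credit to RMA and affy. The detection calls used in the study were not used here, and 0 columns belonged to other samples. From the 42924 probe sets besides 111 controls, 26787 were kept, those whose signal passed each array's 40th percentile in 3 or more of 9 purebred dogs. The 6 Golden Retrievers were compared with the 3 non-Golden Retrievers in limma 3.58.1 (R 4.3.3), without DD1, and with Benjamini-Hochberg adjustment, and the fit was tested on simulated data. The number of arrays limits the precision. Names came from the array's annotation (29254 probe sets with 1 gene, 439 with several, 13231 with none, so named for no gene here). The members and lists were chosen with earlier results of these data known. Named were all members; of each of the 9 pathway lists (not the marker lists), the genes with the highest and lowest difference and any with a call, loss or gain; and the 3 nearest genes by root mean square difference to members spanning at least 3 log2 units. CTNNB1, CTNNA1, EPB41, EPB41L1, EPB41L2, EPB41L4B, EPB41L5, CDH18, CHL1, CXCL8, ITGA4, ITGB1, SELE and the markers were named besides, after their values were seen. Replicate numbers were given in the order of the records and pair no dogs. Gene order and chromosomes came from UU_Cfam_GSD_1.0. Alternatives were no filter, only the more variable probe sets, the methods' t-test, arrays centered on their medians, DD1 in either group, each dog left out, a gap of 2 log2 units and other probe sets.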

Additional observations from a re-analysis of the deposited data

Results flagged for a closer look

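Within the 6 Golden Retrievers, 6 of the 25 probe sets examined (the 23 tested and both of VCAM1) held 1 dog further from the rest than Dixon's critical value of 0.625 for the gap over the range. The genes were selected on such levels and losses, so the chance rate of about 1 in 20 does not apply to them and the flags are a description. ChadG4 was low for CDH11, at 7.61 on probe set 1 (ratio 0.692) and at 6.42 on probe set 2 (ratio 0.630). ChadG8 was high for VCAM1, at 8.66 on probe set 2 (ratio 0.837). Tucker was high for EPB41L3, at 10.27 on probe set 1, 8.88 on probe set 2 and 7.43 on probe set 3 (ratios 0.700, 0.656 and 0.639). Probe sets of 1 gene are not independent, so the 6 flags concern 3 dogs and 3 genes.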

How the results depend on the processing

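For the 8 tested genes, 128 differences by breed label were computed under the alternatives: 123 kept direction and did not pass the adjusted test. CDH11, at -0.22, turned to 0.19 without Dal4 and ChadG4 together (an alternative chosen after seeing the data), and without single dogs ran from -0.50 (without Dal4) to 0.46 (without ChadG4). CDH2, at -0.14, ran without single dogs from -0.56 (without Dal4) to 0.15 (without Joey), and EPB41L3, at 2.92, was 5.17 without Joey. The number of all tested probe sets past the adjusted test was 1, and 0 with DD1 as a non-Golden Retriever, 2 by the methods' t-test (DLA88 and ZNF169), 2 without Dal4 and ChadG4 together and 1 to 2 without single dogs. Member probe sets past it were 0, and 0 to 1 without single dogs. The 1 was EPB41L3 without Joey, the dog highest for it, and since the gene was selected on these values nothing is drawn from it. Groups without overlap, 659 over all tested probe sets and 0 among members, came to 1886 and 2 without Dal4 and ChadG4 together, and to between 761 and 3774 and between 0 and 8 without single dogs, where fewer dogs overlap less often by construction. With a gap of 2 log2 units, losses over all tested probe sets were 148, largest gaps 343 (7 among members) and gains over all probe sets 254. Without the filter, gaps were 188. With it, gains were 26 over all tested probe sets and 0 among members, since VCAM1 then drops out. With other probe sets of the same gene, 10 of 20 spans moved by more than 1 SD, and 1 of 9 list medians moved with the probe set of largest variance. No paired analysis was possible because the labels give the dogs no shared replicate numbers.

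Signals near the 40th percentile give only an upper bound on a level. With 6 dogs against 3, a difference that did not pass the test is not shown to be absent. Each culture was arrayed once, so the error of culture and array cannot be told apart from the spread between dogs.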
